A study of Mus musculus with 18 samples.

Results

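Nuclear-encoded genes of oxidative phosphorylation were examined in mouse liver. They were chosen by symbol alone, as the genes named for subunits of complex I (symbols starting Nduf and a letter for the module), complex II (Sdha to Sdhd), complex III (Uqcr), complex IV (Cox4 to Cox8) and complex V (Atp5). The rule took 94 of the 19057 genes listed, with 48 in complex I, 4 in complex II, 8 in complex III, 17 in complex IV and 17 in complex V. The 48 of complex I hold 8 Ndufaf genes, which encode assembly factors and not subunits. No expression value entered the choice.

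Liver RNA was sequenced from 6 groups of ICR mice at 10 weeks of age, with 3 libraries per group and 18 in all. Con mice were controls on a regular diet with saline. HS mice had a high-fat diet and streptozotocin (STZ), which destroys pancreatic beta cells, as a model of type 2 diabetes. A10 mice received 10 mg/kg alginate oligosaccharide (AOS), a product of brown algae, and HS+A10 mice had the high-fat diet, STZ and 10 mg/kg AOS. These last groups are known here from their labels alone, which give no diet for A10. A10-FMT and Con-FMT mice had the high-fat diet and STZ, and received gut microbiota pooled from donors given 10 mg/kg AOS or from control donors. The mice of the study were male, and ICR is an outbred stock. The labels do not say that each library came from 1 animal, so p-values measure the spread between these libraries.

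Oxidative phosphorylation takes place in the inner mitochondrial membrane. Complex I takes electrons from NADH and complex II from succinate. Complex III passes them to cytochrome c and complex IV on to oxygen, while complexes I, III and IV pump protons. Complex V, the ATP synthase, uses the proton gradient to make ATP. In the hepatocyte this supplies energy for gluconeogenesis and urea synthesis. Most subunits are encoded in the nucleus and imported. The subunits encoded by mitochondrial DNA were not analysed here, since none of the 13 is listed.

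The deposited values were RPKM, reads divided by transcript length and library size. Levels of different genes can thus be set side by side only roughly, since they depend on the length used for each gene. Annotated lengths of the members tested ran from 321.5 to 3632 nt, and the lengths behind the deposited values are unknown. Differences are given as log2(RPKM + 1), from a limma fit over the 18 libraries, and a gene was called at a Benjamini-Hochberg adjusted p under 0.05 over the 10204 genes whose mean reached 1 RPKM. Of the 94 genes, 88 passed this filter. The number of reads per library is unknown, and steps between low values put the relative depth of the libraries between 0.962 and 1.03. The 10 hepatocyte markers summed to 44743 to 49554 RPKM in the HS libraries and 46015 to 64583 RPKM in the Con libraries. Skeletal muscle and testis markers, whose tissues use other isoforms of several subunits, stayed at or under 2.22 RPKM in sum.

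Some libraries had an uncommon place within their group. Con replicate 3 lay between the other Con libraries for 57.6% of all genes tested, for 98.6% of the 140 genes that differed by at least 1 on the log2 scale between them, and for 70 of the 88 members. A10 replicate 3 lay between the other A10 libraries for 48.1% of all genes tested, for 96.3% of 135 such strongly differing genes and for 31 of the 88 members. Over all genes, an independent library would lie between the others for about 1 in 3. Among genes picked because the others differ strongly, a higher share is to be foreseen. In the HS, HS+A10, A10-FMT and Con-FMT libraries that share ran from 54.9% to 74.6%. Whether replicate 3 of these groups is independent of the others is unknown. If it is not, the spread within the group is understated and p-values that rest on it are too small. Con replicate 1 was the lowest Con library for 83 of the 88 members. Con-FMT replicate 3 held mRNA of pancreatic acinar cells, with 12 markers summing to 18929 RPKM against 25.6 RPKM in the lowest Con-FMT library. For the members, calls that were lost without one of these libraries are given with and without it. Genes of other mitochondrial lists are given so for Con-FMT replicate 3. Without Con replicate 1, only counts for the citrate cycle and for assembly of complexes II to V are given. Calls of single genes in those lists, of the remaining lists and of cell markers may thus depend on that library. Cell markers are given with all libraries only.

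The stretch just upstream of 3 genes described below is shown from RefSeq (GRCm38.p6), because many genes of this kind are known to be controlled through nuclear respiratory factor sites near their starts. Each ends before the first base that RefSeq or GENCODE vM21 places in the gene, and the Sdha stretch stops where an exon of the divergent neighbour Ccdc127 begins. Capitals mark a match to the NRF1 motif, searched on both strands, and the other stretches hold no match to the 5 motifs searched.
Sdha, chr13:74350281-74350308, minus strand: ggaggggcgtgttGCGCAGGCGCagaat
Ndufv1, chr19:4012807-4012926, minus strand: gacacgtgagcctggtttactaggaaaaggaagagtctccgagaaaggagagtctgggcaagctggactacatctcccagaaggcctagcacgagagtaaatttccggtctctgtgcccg
Atp5b, chr10:128083153-128083272, plus strand: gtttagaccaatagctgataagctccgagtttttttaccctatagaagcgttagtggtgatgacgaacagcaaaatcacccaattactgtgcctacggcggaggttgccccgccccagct

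RefSeq windows from 250 bases before to 50 after the start were matched for 77 of the 94 genes, as 82 windows. The NRF1 motif was in 24.4% of these windows and in 4.6% of all 32851 windows of that length. The ETS motif CCGGAAG, bound by GABP, was in 22% against 8.86%, and the YY1 motif AAGATGGC in 13.4% against 2.75%. The cAMP response element TGACGTCA was in 4.88% against 1.79% and the ERR motif TCAAGGTCA in 2.44% against 0.423%. Windows of neighbouring starts overlap, and a match is a description of the letters and not a site. Among the genes called below in HS against Con, 6 of 9 had a window, of which 1 held the NRF1 motif (Sdha) and 2 the cAMP response element (Ndufa10 and Uqcrfs1).

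These genes were among the abundant mRNAs of the liver. Their median was 141 RPKM over the 18 libraries, and 59 of the 94 reached 100 RPKM. Ndufa4, placed by name in complex I and now counted with complex IV, had the highest level at 756 RPKM. It was followed by Cox6a1 at 710.1, Atp5b at 648, Cox7c at 622 and Cox8a at 542 RPKM. The median was 294 RPKM for complex V, 192 for complex III, 167 for complex IV, 128 for complex II and 93.1 for complex I. The assembly factors had a median of 8.92 RPKM, so the subunits and their helpers lay far apart in level.

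**Figure D1:**
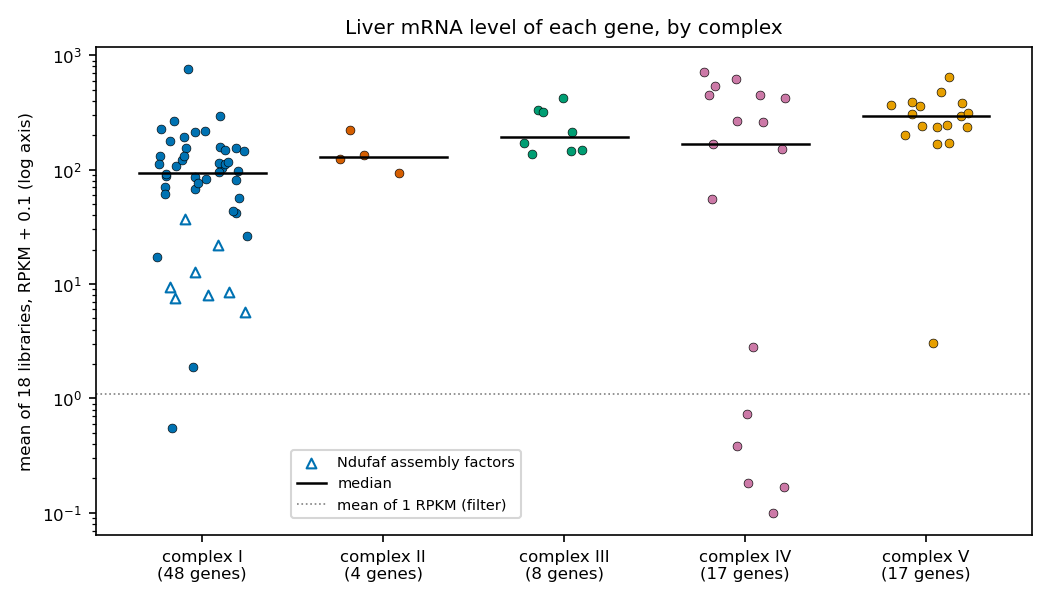
Mean level of each of the 94 genes over the 18 libraries, as RPKM + 0.1 on a log axis, by complex. Black bars are medians, triangles the 8 Ndufaf assembly factors, and the dotted line the filter at a mean of 1 RPKM, under which 6 genes lie.

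The isoform families were dominated by the forms known from liver. Cox4i1, the ubiquitous form of a subunit that regulates complex IV, made up 99.8% to 100% of summed Cox4 RPKM. Cox6a1, Cox6b1 and Cox8a likewise held at least 99.9%, 99.6% and 99.9% of their families in every library. The heart and muscle forms Cox6a2 and Cox8b were listed at 0 in 9 and 14 libraries and reached 0.39 and 0.32 RPKM. Cox7b2, a testis form, was listed at 0 in all 18. Cox6b2, another testis form, was at 1.7, 1.44 and 1.06 RPKM in HS and 0.34, 0.21 and 0.37 RPKM in Con, so that these groups did not overlap. It lay under the filter of the main test. With no filter on low values, Cox6b2 was called higher in HS against Con and lower in A10-FMT and Con-FMT against HS. Its level was at most 1.7 RPKM in any library.

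The Cox7a family was more mixed. Cox7a2 made up 67.9% to 75.8% of its summed RPKM, Cox7a2l, which takes part in respiratory supercomplexes, 22.9% to 30.9%, and the muscle form Cox7a1 0.596% to 2.58%. The membrane-embedded ring of complex V is built from subunit c, which 3 genes encode as the same mature protein. Atp5g3 supplied 38.6% to 47.5% of their summed RPKM, Atp5g1 30.8% to 39.2% and Atp5g2 20.4% to 24.9%. Ndufa4l2, a relative of Ndufa4 known as a hypoxia-inducible gene, stayed at or under 0.425% of the pair. Ndufb4, Ndufb4b and Ndufb4c are near copies, so reads may have been split among them.

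Summed over each complex, complex II was the complex whose Con libraries all lay under those of A10, HS and HS+A10. Its 4 mRNAs summed to 442 to 549 RPKM in the Con libraries, 559.6 to 602 in A10, 592 to 610.0 in HS and 595 to 687 in HS+A10, with no overlap with Con. In the recipients they summed to 523 to 600.0 RPKM (A10-FMT) and 519.7 to 578 RPKM (Con-FMT), which overlapped with Con. For complex IV the ranges were 3567 to 4396 RPKM in Con and 3863 to 4468 RPKM in HS. For complex V they were 4352 to 5475 RPKM in Con and 4953 to 5389 RPKM in HS. The sums of complexes I, III, IV and V in HS lay within or overlapped the range of Con. Con replicate 1 was the lowest Con library for each of the 5 sums. Here and below, fewer hepatocytes and less RNA per hepatocyte cannot be told apart in whole liver.

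**Figure D2:**
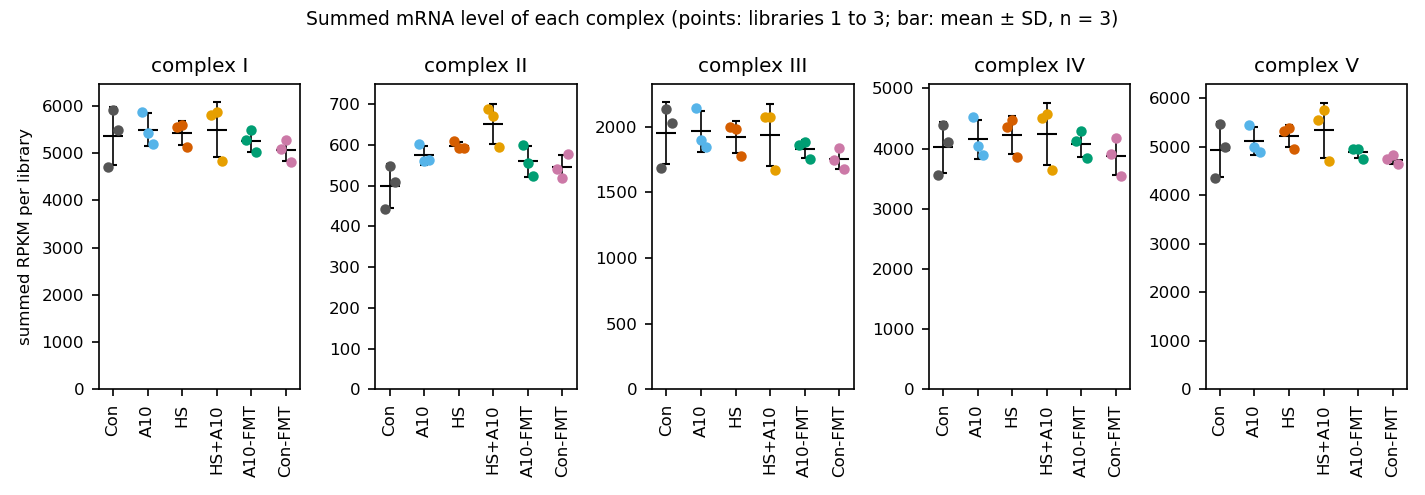
Summed RPKM of complexes I to V in each library, by group, with the mean ± SD of 3 libraries. The complex II libraries of HS lie between 592 and 610.0 RPKM, above all Con libraries, while the groups overlap for the other complexes.

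The first comparison asked how the high-fat diet with STZ changed these mRNAs. Against Con, 9 of the 88 genes tested were higher in HS and 0 were lower, and 20 had an unadjusted p under 0.05. Among all 10204 genes, 15.9% were called higher and 1.87% lower, so the share of members called higher was under that of all genes. The median difference of the 88 genes was 0.06 on the log2 scale against 0.14 for all genes. The 9 called were 4 of 47 tested in complex I, 1 of 4 in complex II, 1 of 8 in complex III, 0 of 12 in complex IV and 3 of 17 in complex V. The medians were 0.05, 0.23, 0.04, 0.06 and 0.06 in the same order.

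Sdha, the flavoprotein of complex II that oxidizes succinate, was at 94.7, 117 and 106 RPKM in the Con libraries and 139, 146 and 154 RPKM in the HS libraries. All HS libraries lay above all Con libraries, and the difference was 0.47 (SE 0.0943, adjusted p = 0.00518). Sdhb, the iron-sulfur subunit of complex II, was at 167, 219 and 202 RPKM in the Con libraries and 228, 214 and 219 RPKM in the HS libraries. The groups overlapped, with a difference of 0.18 (adjusted p = 0.284). The membrane anchors Sdhc and Sdhd differed by 0.18 and 0.28 with adjusted p = 0.107 and 0.0806. All 4 differences of complex II were thus above 0, but 1 passed the test. Sdha was still called in 17 of 18 alternatives, all but the threshold of the study.

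In complex I, 3 of the 4 genes called are described here. Ndufv1, the subunit that binds NADH and FMN, was at 55.4, 68.1 and 66.8 RPKM in the Con libraries and 82.8, 84.3 and 80.5 RPKM in the HS libraries. The difference was 0.38 (SE 0.0929, adjusted p = 0.0138). Ndufs1, the large iron-sulfur subunit, was at 29.4, 41.2 and 35.2 RPKM in the Con libraries and 46.4, 48.1 and 45.8 RPKM in the HS libraries. The difference was 0.41 (SE 0.12, adjusted p = 0.0338). Ndufa10, an accessory subunit, was at 81, 99.5 and 88 RPKM in the Con libraries and 109.6, 108 and 108 RPKM in the HS libraries. The difference was 0.28 (SE 0.0866, adjusted p = 0.0363). The HS libraries of each lay above the Con libraries, by a small margin where Con replicate 2 was high. Several other subunits did not pass the test, with differences of 0.06 for Ndufs3, -0.0037 for Ndufs7, -0.19 for Ndufs8 and 0.05 for Ndufv2. None of the 8 assembly factors was called, and their median was 0.09.

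Uqcrfs1, the Rieske iron-sulfur protein of complex III, was at 107, 128 and 125 RPKM in the Con libraries and 152, 156 and 147 RPKM in the HS libraries. The difference was 0.34 (SE 0.085, adjusted p = 0.0154). The core proteins Uqcrc1 and Uqcrc2 differed by 0.25 and 0.28, with adjusted p = 0.0882 and 0.0808. Uqcr11, a small accessory subunit of complex III, was at 317, 412 and 396 RPKM in the Con libraries and 272, 313 and 275 RPKM in the HS libraries. It lay lower in every HS library, with a difference of -0.38 (SE 0.13, adjusted p = 0.0536). In complex IV, where 0 of 12 were called and 1 had an unadjusted p under 0.05, Cox4i1, Cox5a and Cox5b differed by 0.09, 0.18 and 0.06. Cox6a1 had the largest difference there, 0.19 (adjusted p = 0.227).

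In complex V both subunits of the catalytic hexamer were called. Atp5b, the catalytic beta subunit, was at 486, 625 and 569.8 RPKM in the Con libraries and 694, 783 and 696 RPKM in the HS libraries. The difference was 0.37 (SE 0.10, adjusted p = 0.0204). Atp5a1, the alpha subunit, was at 308, 361 and 351 RPKM in the Con libraries and 426, 434 and 433 RPKM in the HS libraries. The difference was 0.35 (SE 0.0912, adjusted p = 0.019). Atp5f1, subunit b of the peripheral stalk, was at 135, 177 and 153 RPKM in Con and 187, 194 and 176 RPKM in HS, which overlapped, and its difference of 0.27 was not called (adjusted p = 0.056). Among further head and stalk subunits, Atp5c1, Atp5d, Atp5o, Atp5h and Atp5j differed by 0.06, 0.15, 0.04, 0.06 and -0.04 and were not called. Atp5s, a low-level gene named as coupling factor s, was at 2.02, 2.42 and 1.72 RPKM in Con and 3.19, 3.17 and 3.08 RPKM in HS, with a difference of 0.45 (SE 0.12, adjusted p = 0.0173). Atp5e, the epsilon subunit, was at 257, 302 and 268 RPKM in the Con libraries and 216, 214 and 212 RPKM in the HS libraries. These did not overlap, but the difference of -0.36 did not pass the test (adjusted p = 0.236).

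**Figure D3:**
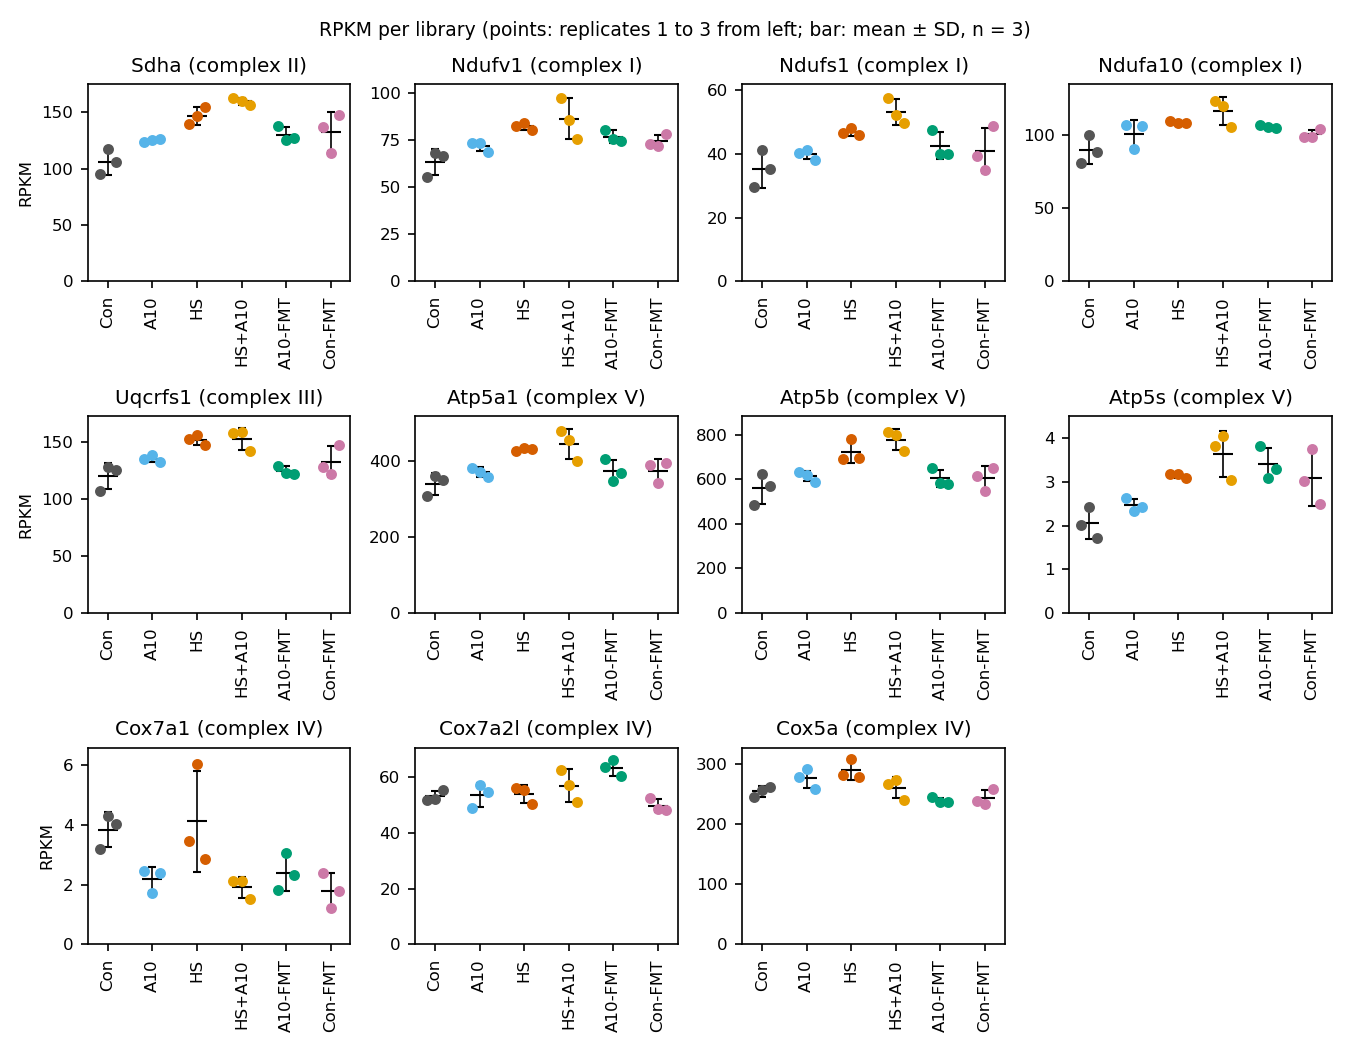
RPKM in each library for 8 of the 9 genes called in HS against Con and for Cox7a1, Cox7a2l and Cox5a, with mean ± SD of 3 libraries and axes from 0. Sdha lies between 139 and 154 RPKM in HS against 94.7 to 117 RPKM in Con, and the lowest Con point is replicate 1 in all but Atp5s.

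In GRCm38 (GENCODE vM21), Sdha is at chr13:74322254-74350280 and Uqcrfs1 at chr13:30540308-30545362 on chromosome 13. Ndufs1 is at chr1:63143596-63176833 and Ndufa10 at chr1:92439010-92473860 on chromosome 1. Ndufv1 is at chr19:4007384-4012806, Atp5b at chr10:128083273-128090391 and Atp5s at chr12:69724950-69744660. Each value is 1 per gene and not per exon or transcript.

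The count depended on the Con libraries and on the scaling. Without Con replicate 1, 1 gene was higher (Sdha) and 3 were lower (Ndufs8, Ndufv3 and Uqcr11). Without Con replicate 2, 14 were higher and 0 lower. Without Con replicate 3, which lay between the others, 4 were higher (Atp5a1, Ndufv1, Sdha and Uqcrfs1), and without HS replicate 2 there were 3 (Atp5s, Ndufv1 and Sdha). Scaling each library to the same median, which removes the shift of 0.14 over all genes, left Sdha as the 1 gene higher, at 0.28 on the log2 scale, and Ndufs8, Ndufv3 and Uqcr11 as the 3 lower. Under that scaling 3.9% of all genes were called higher and 4.76% lower. The 9 genes kept their direction in every alternative. Ndufv3, an accessory subunit of complex I, was named after its values had been seen.

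The difference followed transcript length. Over the 87 members with an annotated length, Spearman's rho between the HS minus Con difference and the median transcript length was 0.53. Over 10068 genes it was 0.13. The members' rho was 0.47 in A10 against Con and 0.31 in HS+A10 against HS. It was -0.19 in A10-FMT against HS, -0.06 in Con-FMT against HS and -0.33 in A10-FMT against Con-FMT. The members share libraries and are not independent, so no p is given. In HS against Con, none of the 54 members of up to 1000 nt was called. Of the 24 over 1000 and up to 2000 nt, 5 were called, or 20.8% against 14.3% of all genes of that length. Of the 9 over 2000 nt, 4 were called, or 44.4% against 18.1%. The members are short, with a median of 755 nt against 2569.5 nt for all genes tested.

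Length and a place in the list of core subunits went together among these genes. The 22 listed as core are mostly subunits that bind substrates, carry electrons or form catalytic parts. Cox4i1, Cox5a and Cox5b of complex IV and Uqcrc1 and Uqcrc2 of complex III are also on the list. So is Atp5o of complex V, and the list is thus mixed in role. These 22 had a median length of 1271.5 nt and a median difference of 0.18, with 7 called and 20 above 0. The other 66 members had a median length of 642 nt and a median difference of 0.02, with 2 called and 39 above 0. With each library's trend on length removed, 2 were called higher (Ndufv1 and Sdha) and 2 lower (Ndufv3 and Uqcr11). The parts of this list and of length in the difference cannot be told apart here.

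**Figure D4:**
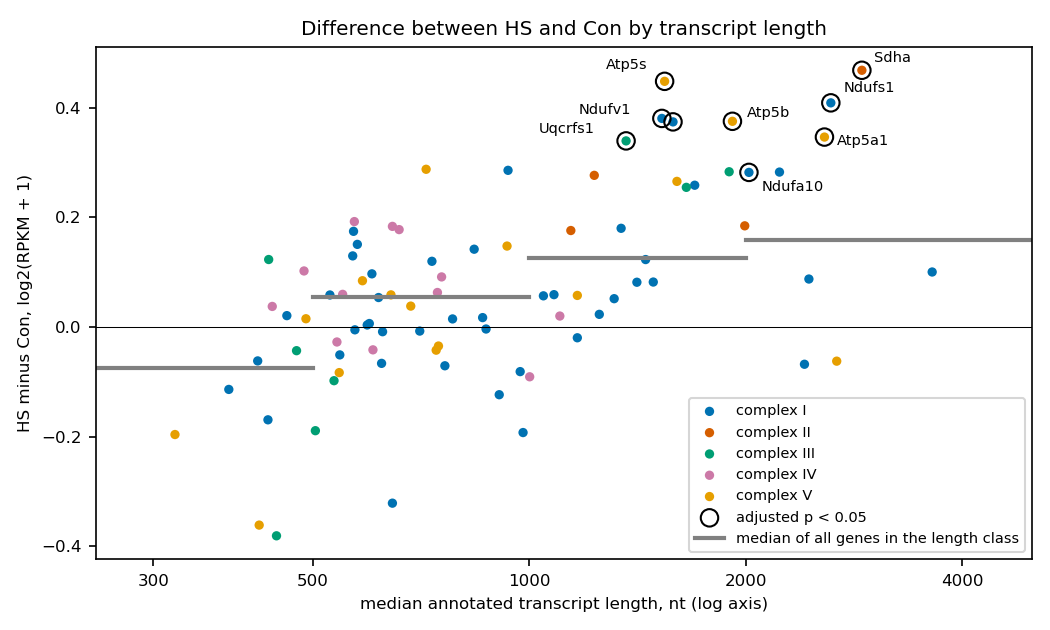
HS minus Con difference on the log2(RPKM + 1) scale against median annotated transcript length on a log axis, for 87 genes coloured by complex. Rings mark the 9 genes called, 8 of them named and all over 1000 nt, and grey lines the median of all genes in the length classes bounded at 500, 1000 and 2000 nt, which run from -0.08 to 0.16.

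Other mitochondrial genes from lists written for these pathways were read beside them. The citrate cycle feeds NADH and succinate to complexes I and II. Of its 14 listed genes, 10 were higher in HS and 0 lower, with a median of 0.43, where 15.9% of all genes were higher. The largest was Idh2, an isocitrate dehydrogenase, at 0.83 (adjusted p = 0.00203). Ogdh, Dlst and Dld, which form the 2-oxoglutarate dehydrogenase complex, were higher by 0.55, 0.56 and 0.43, and fumarase, Fh1, by 0.60. Under median scaling 7 of the 14 were called higher and 1 lower, and without Con replicate 1 the count was 8 higher and 0 lower. With the length trend removed, 8 were higher and 1 was lower.

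Of 32 genes for the assembly of complexes II to V, 7 were higher and 0 lower, with a median of 0.11, where 15.9% of all genes were higher and the median was 0.14. They included Lrpprc, which stabilizes mitochondrial mRNA, at 0.38, Cox15 and Cox10, which make haem A, at 0.37 and 0.28, and Sco1, a copper chaperone of complex IV, at 0.36. Under median scaling 0 of the 32 were called higher, and without Con replicate 1 the count was 1. Nubpl, which inserts iron-sulfur clusters into complex I, was higher by 0.65 (adjusted p = 0.00352), as 1 of 10 complex I assembly genes outside the name rule. Of 16 regulators of mitochondrial biogenesis, 2 were higher (Polg and Twnk, of mitochondrial DNA replication), and of 16 membrane and import genes 3 were higher (Hspa9, Hspd1 and Tomm70a). The counts in these lists were near the share of all genes.

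Some markers of other liver cells were called in the same comparison, where 15.9% of all genes were higher and 1.87% lower. The 6 hepatic stellate markers summed to 69.1 to 80.1 RPKM in Con and 109.5 to 159 RPKM in HS, with 2 of 6 called higher. Of 6 endothelial markers 2 were higher, with sums of 48 to 54.1 and 57.9 to 62.8 RPKM. The 7 erythroid markers summed to 1582 to 3124 RPKM in Con and 4435 to 12414 RPKM in HS, with 1 of 6 tested called. None of 7 Kupffer cell markers was called in either direction, and 2 had an unadjusted p under 0.05. Of 10 hepatocyte markers, 1 was higher and 1 lower. The part of these cells in the differences above was not tested.

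The next comparison set the A10 mice, whose label gives AOS and names neither diet nor STZ, against Con. In A10 against Con, 0 of the 88 genes were called by limma and 3 had an unadjusted p under 0.05, where 0.049% of all genes were called higher and 0.0196% lower. The count stayed at 0 without any 1 library of either group. The median difference was 0.05 against 0.07 for all genes. Complex II had the highest median, 0.21, with all 4 genes above 0. Sdha was at 124, 125 and 126 RPKM in the A10 libraries, all above the Con libraries, and differed by 0.24 (SE 0.0943, adjusted p = 0.288). Sdhd differed by 0.27 (SE 0.11, adjusted p = 0.298). The largest difference of any member was that of Cox7a1, at 2.46, 1.72 and 2.38 RPKM in A10 and 3.19, 4.3 and 4.02 RPKM in Con, or -0.60 (SE 0.21, adjusted p = 0.248). All 22 subunits listed as core lay above 0, with a median of 0.15, while 40 of the other 66 members did, with a median of 0.02. The difference followed transcript length here too, with a Spearman's rho of 0.47 over the members and 0.07 over all genes. The Con libraries are those of the HS comparison, and their replicate 1 was the lowest for 83 of the 88 members. The parts of length and of this library were not tested.

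In mice with the high-fat diet and STZ, 2 of the 88 genes were lower when AOS was given. In HS+A10 against HS, where 4.37% of all genes were called lower and 2.95% higher, 0 members were higher and 6 had an unadjusted p under 0.05. Ndufaf8, an assembly factor of complex I, was at 42.3, 43.6 and 42.8 RPKM in HS and 31.1, 34.3 and 33 RPKM in HS+A10, a difference of -0.38 (SE 0.0963, adjusted p = 0.0301). Cox7a1 was at 3.47, 6.02 and 2.84 RPKM in HS and 2.12, 2.11 and 1.51 RPKM in HS+A10, a difference of -0.77 (SE 0.21, adjusted p = 0.0393). The groups did not overlap for either gene. The highest Cox7a1 value was that of HS replicate 2, and without this library 0 members were lower and 1 was higher (Ndufaf6). Without any 1 of the HS+A10 libraries the count was also 0, and without HS replicate 3 it was 1.

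The 9 genes that were higher in HS were not called in this comparison. Sdha was at 162, 160.0 and 156 RPKM in HS+A10, Ndufs1 at 57.3, 52.2 and 49.5 RPKM and Atp5b at 813, 799 and 726 RPKM. For Sdha and Ndufs1 all HS+A10 libraries lay above all HS libraries, with differences of 0.12 (SE 0.0943, adjusted p = 0.45) and 0.18 (SE 0.12, adjusted p = 0.404). For Atp5b the difference was 0.11 (adjusted p = 0.557) and the groups overlapped. The largest difference in complex II was that of Sdhb, 0.17, in complex III that of Uqcrc2, 0.20, and in complex V that of Atp5k, 0.23, none of them called. The median of the 88 genes was 0.03 against -0.03 for all genes. All 6 endothelial markers lay above 0 with an unadjusted p under 0.05, 1 of them called, and their sums were 71.6 to 86.3 RPKM in HS+A10 against 57.9 to 62.8 RPKM in HS. Erythroid sums were 2962 to 4064 against 4435 to 12414 RPKM, with none of 6 called and 1 at an unadjusted p under 0.05. Hepatocyte sums were 51489.5 to 54423 against 44743 to 49554 RPKM, with 1 of 10 called higher, and 1 of 3 cholangiocyte markers was lower. Their part in the differences was not tested. Tests of a difference between HS+A10 against HS and A10 against Con called 0 of the 88 genes by limma, 3 had an unadjusted p under 0.05, and 1 of the 10204 genes tested was called (0.0098%).

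Recipients of microbiota from AOS-treated donors had 5 members lower than HS and 0 higher. This is 5 of 88, where 21% of all genes were called lower and 2.09% higher, and the median was -0.08 against -0.16 for all genes. Cox5a, a subunit of complex IV, was at 281, 308 and 278 RPKM in HS and 245, 237 and 237 RPKM in A10-FMT, a difference of -0.27 (SE 0.0761, adjusted p = 0.0205). Uqcrfs1 was at 129, 123 and 122 RPKM in A10-FMT, all under its HS libraries, a difference of -0.28 (SE 0.085, adjusted p = 0.0274). Ndufaf5, an assembly factor that modifies a complex I subunit, was at 8.74, 7.27 and 8.88 RPKM in HS and 7, 5.7 and 5.36 RPKM in A10-FMT, a difference of -0.41 (SE 0.11, adjusted p = 0.0177). The other 2 were Ndufaf8, -0.34 (SE 0.0963, adjusted p = 0.0218), and Atp5mpl, a small membrane subunit of complex V, -0.31 (SE 0.0978, adjusted p = 0.0322). Of the complex I subunits by name, 0 of 39 were called and 1 had an unadjusted p under 0.05.

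Recipients of control microbiota also had 5 members lower than HS and 0 higher, where 19% of all genes were lower and 4.61% higher. The median was -0.11 against -0.12 for all genes. Cox7a1 was at 2.39, 1.22 and 1.77 RPKM in Con-FMT, all under its HS libraries, a difference of -0.84 (SE 0.21, adjusted p = 0.00948). Sdhd was at 112, 104 and 91.5 RPKM in HS and 83.4, 70 and 89.8 RPKM in Con-FMT, a difference of -0.34 (SE 0.11, adjusted p = 0.0305). Cox5a, Atp5mpl and Ndufaf8 differed by -0.25, -0.32 and -0.30, with adjusted p = 0.0284, 0.0288 and 0.0346. Without Con-FMT replicate 3, which carried the pancreatic mRNA, 5 were lower, but not the same 5. Cox5a, Cox7a1 and Sdhd were still called, and Uqcrfs1 was newly called (adjusted p = 0.0323). The calls of Atp5mpl and Ndufaf8 were lost, at -0.25 and -0.23 (adjusted p = 0.103 and 0.121).

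Both recipient comparisons share the HS libraries, so their values are set side by side without an overlap. Sdha was -0.17 (SE 0.0943, adjusted p = 0.188) in A10-FMT and -0.15 (SE 0.0943, adjusted p = 0.27) in Con-FMT, and Atp5b was -0.26 (SE 0.10, adjusted p = 0.0722) and -0.26 (SE 0.10, adjusted p = 0.0728). These values were below 0 but did not pass the test. Under median scaling 0 members fell in A10-FMT and 3 were higher (Atp5k, Cox7a2l and Ndufs8), where 5.06% of all genes were lower and 6.26% higher. For Con-FMT 1 member was then lower (Cox7a1), where 12.2% of all genes were lower and 8.41% higher. Without A10-FMT replicate 3, 0 members were lower in A10-FMT, and without its replicate 2 there was 1 (Ndufaf8). Without HS replicate 2, 1 member was lower in A10-FMT (Ndufaf5) and 1 in Con-FMT (Cox7a1), and Ndufaf6, an assembly factor of complex I, was higher in both. Without Con-FMT replicate 1, Cox7a1 was the 1 member lower in Con-FMT. Of 14 citrate cycle genes, 6 fell in A10-FMT and 7 fell in Con-FMT, and 1 and 5 under median scaling. Of 32 assembly genes of complexes II to V, 5 and 4 were lower, while under median scaling 0 were lower and 1 higher in A10-FMT, and 1 lower and 1 higher in Con-FMT. Without Con-FMT replicate 3 there were 7 lower in Con-FMT. 

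Some markers of other cells were also called lower in the recipients. Among all genes, 21% were called lower and 2.09% higher in A10-FMT against HS. In Con-FMT against HS the shares were 19% and 4.61%. In A10-FMT, 5 of 7 Kupffer cell markers were lower than in HS, with sums of 44.9 to 56.9 against 67 to 112 RPKM. There 3 of 6 endothelial markers were lower, with sums of 41.8 to 52.3 against 57.9 to 62.8 RPKM, as were 1 of 6 stellate, 1 of 6 erythroid and 1 of 3 cholangiocyte markers. Of 10 hepatocyte markers 1 was higher and 3 were lower. Erythroid sums were 1692 to 2625 RPKM in A10-FMT and 1231 to 5735 RPKM in Con-FMT, against 4435 to 12414 RPKM in HS. In Con-FMT, 3 of 6 erythroid and 3 of 6 stellate markers were lower, and 2 of 6 endothelial markers were lower and 1 higher. By limma 0 of 7 Kupffer cell markers were called there, with 2 at an unadjusted p under 0.05, and 2 of 10 hepatocyte markers were higher and 1 lower. The part of these cells in the values above was not tested.

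The 2 kinds of donor microbiota were then compared. In A10-FMT against Con-FMT, where 6.72% of all genes were higher and 12% lower, 1 of the 88 genes was higher and 1 lower. Cox7a2l was at 63.4, 66 and 60.2 RPKM in A10-FMT and 52.2, 48.3 and 48.2 RPKM in Con-FMT. Every A10-FMT library lay above every Con-FMT library, and the difference was 0.34 (SE 0.0842, adjusted p = 0.0107). It was called in 16 of 18 alternatives, among them the fits without each library in turn. In the other groups Cox7a2l was at 52.9 ± 2, 53.4 ± 4.24, 53.7 ± 3.16 and 56.7 ± 5.86 RPKM (Con, A10, HS and HS+A10; SD, n = 3). Ndufaf5 was lower, at -0.36 (SE 0.11, adjusted p = 0.0334), although the groups overlapped at 7, 5.7 and 5.36 and 6.9, 8.11 and 9.06 RPKM. Its call was kept in 7 of 18 alternatives and in 2 of 6 fits that left out a library. Without Con-FMT replicate 3 it was lost, at -0.28 (adjusted p = 0.127), while Cox7a2l was at 0.32 (adjusted p = 0.0331).

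Ndufa4l2 had the largest difference, at 3.36, 2.43 and 2.06 RPKM in A10-FMT and 1.88, 1.38 and 0.89 RPKM in Con-FMT, or 0.61 (SE 0.21, adjusted p = 0.0555). Atp5e differed by 0.33 (adjusted p = 0.297), with 191, 305 and 293 RPKM in A10-FMT. Outside the name rule, Atpif1, the inhibitor of ATP synthase, was higher with AOS donors by 0.48 (adjusted p = 0.0378), a call lost without Con-FMT replicate 3 (adjusted p = 0.133). Of 16 regulators 3 were higher and 1 was lower, where 6.72% of all genes were higher and 12% lower. Polg2, the accessory subunit of the mitochondrial DNA polymerase, was higher by 0.65, Ppargc1b, a coactivator of mitochondrial genes, by 0.63 and Esrra, a nuclear receptor that works with it, by 0.52, while Pprc1, a relative of Ppargc1b, was lower, at -0.71. These 4 calls held without Con-FMT replicate 3. In this comparison 2 of 6 endothelial and 3 of 10 hepatocyte markers were lower, where 12% of all genes were. Their part was not tested.

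**Figure D5:**
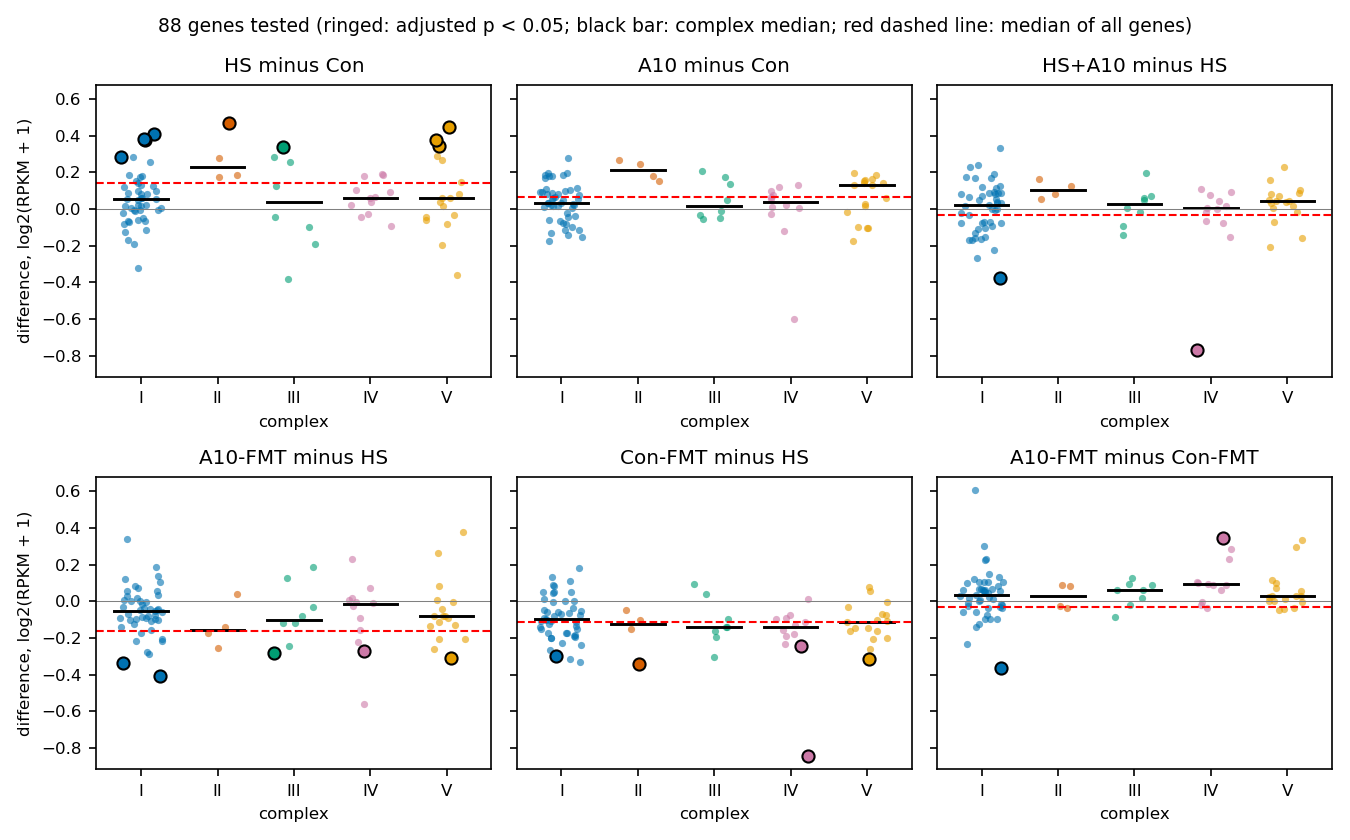
Differences on the log2(RPKM + 1) scale for the 88 genes tested, by complex, in the 6 comparisons. Ringed points passed an adjusted p of 0.05, black bars are the medians of the complexes, and red dashed lines the medians of all genes, which were 0.14 in HS against Con and -0.16 in A10-FMT against HS.

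Over the 6 comparisons, 16 of the 88 genes were called at least once and 72 were called in none. Groups did not overlap for 18 of the 94 genes in HS against Con (36.8% of all genes tested), 7 in A10 against Con (24.8%), 12 in HS+A10 against HS (27.4%), 26 in A10-FMT against HS (37.4%), 24 in Con-FMT against HS (35%) and 7 in A10-FMT against Con-FMT (31.5%). In each comparison the share of members was under that of all genes.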

How the data were processed

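RNA from mouse liver was enriched with oligo(dT) beads and sequenced on an Illumina instrument by the authors. The labels name Bowtie 0.12.2 and mm10 in the submitters' processing notes, while the methods of the study name SOAPaligner. The deposited table holds RPKM to 2 decimals in 18 libraries (6 groups of 3) and no read counts, so counting error is unknown. Precision rests on the spread between libraries within groups, which the fit pooled over the 6 groups.

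Deposited values entered on the log2(RPKM + 1) scale. The 10204 genes whose mean reached 1 RPKM were tested with limma 3.58.1 in R 4.3.3, using 1 mean per group, moderated variance with a trend on expression and two-sided Benjamini-Hochberg adjusted p under 0.05. The method was run on simulated independent values without shifts between libraries, and with differences larger than any called among the members. It therefore does not test calls of the size given here. Lengths are medians over GENCODE vM21 transcripts of GRCm38, the build also called mm10, and figures and motif searches were made in Python 3.11.15. Members and gene lists were chosen with earlier results of these data known, and the lists come from general knowledge. Named were core subunits, isoform families, called genes, the largest difference per complex and comparison, and the highest and lowest levels, except that 1 gene, which the counts include, is not reported here. The study's own test (DEGseq) was not used, since it needs read counts. Alternatives were a pseudocount of 0.1, no filter or a mean of at least 5 RPKM, quantile, median and top-10-free scaling, removal of the trend with length, other sets of libraries in the fit, no variance trend, a replicate block, the threshold of the study and leaving out each library.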

Additional observations from a re-analysis of the deposited data

How the results depend on the processing

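No gene that was called changed its direction under any alternative. For single genes in single comparisons, 237 results kept their side of the threshold and 172 lost it. Counts of members called moved by over 1.5 times as follows. In HS against Con, 9 higher and 0 lower became 5 higher with 12 libraries, 2 higher with the 2 groups alone and 0 with the threshold of the study. They became 2 and 2 with the length trend removed, 1 and 3 under median scaling, and 5 and 3 under quantile normalization, while 1 was lower with a mean of at least 5 RPKM and 1 without the 10 most abundant genes in the scaling. In HS+A10 against HS, 2 lower became 1 with a mean of at least 5 RPKM, 1 with no filter, 0 with the 2 groups alone and 0 with the threshold of the study, and 1 was higher with the length trend removed. In A10-FMT against HS, 0 higher and 5 lower became 1 and 3 with 12 libraries, 2 and 2 with the length trend removed, 3 and 0 under median scaling, 2 and 1 under quantile normalization, 2 and 1 without the 10 most abundant genes, and 1 lower with the 2 groups alone. In Con-FMT against HS, 5 lower became 2 with 12 libraries, 1 under median scaling, 8 under quantile normalization and 0 with the 2 groups alone. In A10-FMT against Con-FMT, 1 higher and 1 lower became 4 higher with the length trend removed, 5 and 0 under quantile normalization, 2 and 0 under median scaling, 2 and 0 without the 10 most abundant genes, 0 lower with 12 libraries or no filter, and 0 and 0 with the 2 groups alone. The threshold of the study, an adjusted p of at most 0.001 and a difference of at least 1, called 0 members in any comparison. Beyond the smaller number of libraries, the cause was not tested.

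Leaving out each library gave 1 to 14 higher and 0 to 3 lower in HS against Con, 0 to 1 higher and 0 to 2 lower in HS+A10 against HS, 0 to 1 higher and 0 to 5 lower in A10-FMT against HS, 0 to 1 higher and 1 to 5 lower in Con-FMT against HS, and 1 to 2 higher and 0 to 1 lower in A10-FMT against Con-FMT. Medians minus that of all genes ran from 0.011 to 0.15 for the members in HS+A10 against HS, from 0.11 to 0.20 for complex II in A10 against Con and from 0.00864 to 0.17 for complex III in HS+A10 against HS. Medians minus that of all genes that moved by more than the spread were, in HS against Con, 0.0030 for all members, 0.055 for complex III, 0.062 for complex IV and 0.043 for complex V with the length trend removed, 0.17 for complex II with no filter and 0.00855 for complex III under quantile normalization. With no filter complex II was at -0.088 in A10-FMT and -0.085 in Con-FMT against HS, and under quantile normalization at -0.074 and -0.099. Under quantile normalization all members were at -0.084 and complex V at -0.13 in Con-FMT against HS.

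Replicate numbers are shared in the labels. The correlation of deviations between same-numbered libraries was 0.14, 0.01 and -0.05 in HS against Con. It was 0.23, -0.03 and 0.26 in HS+A10 against HS and 0.16, -0.09 and 0.21 in A10-FMT against HS. In the other comparisons it lay between -0.07 and 0.04. Replicate 3 was the lowest library for 53 of the 88 members in A10, 65 in HS and 78 in HS+A10. It was the lowest for 56 in A10-FMT, 52 in Con-FMT and 5 in Con. Whether the numbers stand for pairs or a batch cannot be told from so few libraries. With the replicate block, HS+A10 against HS had 1 lower member in place of 2, and the other counts stayed within 1.5 times.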

Other observations

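Values of other mitochondrial genes are given on the log2 scale, with adjusted p from the limma fit over all genes. Ppargc1b, which with Esrra and Nrf1 governs the expression of mitochondrial genes, was higher in A10-FMT than in HS by 0.62 (adjusted p = 0.00319) and higher in HS+A10 than in HS by 0.67 (adjusted p = 0.00622). In Con-FMT against HS, Esrra was at -0.57 and Nrf1 at -0.40 (adjusted p = 0.00459 and 0.0266), and Polrmt, the mitochondrial RNA polymerase, was at -0.24. Pprc1 and Mterf3 were higher by 0.57 and 0.22 (adjusted p = 0.00548 and 0.0345). This makes 2 higher and 3 lower of 16 regulators, where 4.61% of all genes were called higher and 19% lower. Without Con-FMT replicate 3 the calls of Nrf1 and Mterf3 were lost (adjusted p = 0.0751 and 0.105). Among mitochondrial chaperones, Hspe1 was at -0.47 in A10-FMT against HS and at -0.58 in A10-FMT against Con-FMT, and Hspd1 at -0.35 and -0.54. Fh1 was at -0.47 in HS+A10 against HS (adjusted p = 0.0296) and at -0.65 in A10-FMT against Con-FMT. Idh3a, of the NAD-dependent isocitrate dehydrogenase, was at -0.58 in Con-FMT against HS and at 0.47 in A10-FMT against Con-FMT.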
